A study of Homo sapiens with 22 samples.

Results

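The regions described here are 824 promoter regions of the histone mark H3R2me2a at transcript starts, out of 8819 regions in all. They were chosen from cluster III, the group of regions deposited under the retinoic acid-treated library. A region was a member if the authors placed it in the promoter list and in the start class (a window they set around transcript starts), and if its tagcount divided by its MACS tags was below 0.5. Both values are numbers of sequenced tags in the region, and the ratio of them is called the tag ratio below. The short arm of chromosome 12 (starts below 36 Mb) was left out. Of 2339 cluster III start promoters, 824 (35.2%) met the limit, and they carried 812 gene names. The other 1515 are called the higher-ratio start promoters.

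The study measured chromatin by ChIP-seq in NT2/D1, a pluripotent human embryonal carcinoma line whose cells leave that state under all-trans retinoic acid (ATRA). It combined 5 antibodies and 22 samples of CRISPR/Cas9 control cells and of cells in which CRISPR/Cas9 had deleted PRMT6. The region lists used below were deposited under 2 samples, both H3R2me2a libraries of control cells made with a rat monoclonal antibody. One was from untreated cells, and the other followed 3 days with ATRA at 1 µM. MACS tags of cluster III go with the treated sample, while the library of tagcount is not stated. With a single library for each condition, no difference has a replicate check and no p-values were computed. No source used here says whether the control cells were 1 clone.

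H3R2me2a is asymmetric dimethylation of arginine 2 on histone H3, and PRMT6 is its main writer. The arginine lies beside lysine 4, and the mark is known to hinder the enzyme complexes that trimethylate that lysine at active promoters. Retinoic acid acts through nuclear receptors bound to DNA, and in embryonal carcinoma cells it switches on HOX genes and shuts down pluripotency genes.

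MACS tags are the peak caller's count, listed for cluster III and deposited under the ATRA-treated library. For tagcount no source used here names the library. In cluster I, whose 202 regions belong to the untreated library, tagcount exceeded MACS tags by 0 to 8 (median 3), so the values point to untreated cells. Sequencing depth is unknown and neither count is scaled. A ratio below 1 is therefore no fold change by itself, and the level to read it against is the pooled ratio of all cluster III start promoters, 0.554.

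Promoter sequences of 6 members are shown as examples. SSH3, HOXA3, YTHDF2 and PCIF1 are among the members with most tags, IGFBP2 paired many MACS tags with a very low ratio, and SRF belongs to the immediate early genes. IGFBP2 and SRF were chosen after their values were seen. Their GC content, 55.3% and 59.3%, was below the median of member promoters, 67.3%. Each is the RefSeq promoter on GRCh38.p14, from 250 bases before to 50 after the start, written 5′ to 3′ on the gene's strand. Capitals mark the GC box GGGCGG or its complement, which SP and KLF factors bind, and in SRF they mark CArG boxes, the element bound by serum response factor. The promoters of PCBP2 and COQ7, which had more MACS tags than YTHDF2 and are not shown, held 1 and 2 GC boxes. A match of letters is a description and does not show that a factor was bound.
SSH3 (5 GC boxes, chr11:67303280-67303579, plus strand): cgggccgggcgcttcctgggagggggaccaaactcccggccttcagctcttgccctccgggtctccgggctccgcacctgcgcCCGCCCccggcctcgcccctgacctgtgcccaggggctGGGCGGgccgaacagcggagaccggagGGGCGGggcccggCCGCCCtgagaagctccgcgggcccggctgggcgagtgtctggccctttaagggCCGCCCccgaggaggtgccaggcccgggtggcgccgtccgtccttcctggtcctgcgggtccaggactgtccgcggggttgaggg
HOXA3 (4 GC boxes, chr7:27113793-27114092, minus strand): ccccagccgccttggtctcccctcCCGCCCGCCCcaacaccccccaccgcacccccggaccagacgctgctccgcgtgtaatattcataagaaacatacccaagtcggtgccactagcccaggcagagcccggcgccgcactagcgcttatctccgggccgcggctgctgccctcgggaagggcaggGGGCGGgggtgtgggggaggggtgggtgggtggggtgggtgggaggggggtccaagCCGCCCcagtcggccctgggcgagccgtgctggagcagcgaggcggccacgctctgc
YTHDF2 (4 GC boxes, chr1:28736690-28736989, plus strand): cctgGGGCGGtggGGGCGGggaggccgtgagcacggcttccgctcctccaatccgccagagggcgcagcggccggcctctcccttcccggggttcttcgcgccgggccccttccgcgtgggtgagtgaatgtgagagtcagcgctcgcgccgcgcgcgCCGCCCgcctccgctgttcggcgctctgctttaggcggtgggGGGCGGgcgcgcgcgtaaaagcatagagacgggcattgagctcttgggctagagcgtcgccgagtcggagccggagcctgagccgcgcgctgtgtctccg
PCIF1 (no GC box, chr20:45934433-45934732, plus strand): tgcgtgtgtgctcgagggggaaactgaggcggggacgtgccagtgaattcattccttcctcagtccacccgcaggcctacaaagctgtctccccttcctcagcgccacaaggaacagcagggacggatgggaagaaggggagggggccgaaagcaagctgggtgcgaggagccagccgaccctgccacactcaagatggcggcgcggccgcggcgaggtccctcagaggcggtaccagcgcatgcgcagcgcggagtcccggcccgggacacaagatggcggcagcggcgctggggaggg
IGFBP2 (1 GC box, chr2:216632578-216632877, plus strand): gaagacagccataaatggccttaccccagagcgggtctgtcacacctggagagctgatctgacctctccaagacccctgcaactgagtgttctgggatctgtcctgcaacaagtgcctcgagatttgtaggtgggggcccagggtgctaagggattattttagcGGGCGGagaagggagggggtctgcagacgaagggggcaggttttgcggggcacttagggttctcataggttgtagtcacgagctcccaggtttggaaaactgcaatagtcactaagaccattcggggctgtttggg
SRF (2 CArG boxes, chr6:43171019-43171318, plus strand): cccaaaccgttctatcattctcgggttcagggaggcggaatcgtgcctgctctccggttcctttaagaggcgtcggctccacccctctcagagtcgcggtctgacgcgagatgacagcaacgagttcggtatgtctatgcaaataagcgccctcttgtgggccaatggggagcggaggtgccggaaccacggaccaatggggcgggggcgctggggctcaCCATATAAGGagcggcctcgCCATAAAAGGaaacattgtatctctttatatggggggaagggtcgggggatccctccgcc

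The tag ratio, MACS tags and tagcount chose the members, so their values are given as a description. Members had 27 to 318 MACS tags (median 51, 95% order-statistic interval 50 to 54) and tagcount values of 4 to 150 (median 21, 20 to 22). Their median ratio was 0.42 (0.41 to 0.43), with a range from 0.138 to 0.496. The higher-ratio start promoters had a similar median of MACS tags, 50 (49 to 51), and a median tagcount of 33 (32 to 34). In the 1420 start promoters of cluster II, tagcount was much higher, with a median of 74 (71 to 78).

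The limit cut through a continuous distribution. Just inside it lay DHX9, an RNA helicase gene, with 139 MACS tags and a tagcount of 69, and FAM21A and MYL6 with 97 and 48 each. Just outside lay RHOF (136 and 68) and the planar polarity gene VANGL2 (124 and 62), both at a ratio of 0.5. A ratio of 0.4 or above was held by 501 members (60.8%), and one below 0.25 by 27. The counting interval of the ratio (exact binomial, 95%) ended below 0.5 in 50 members (6.07%), and below 0.554 in 104 (12.6%). For most members, then, counting error alone spans the limit. The share of cluster III start promoters below 0.5 was 32.1%, 35.4%, 33.4% and 40% from the lowest to the highest quartile of MACS tags.

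**Figure D1:**
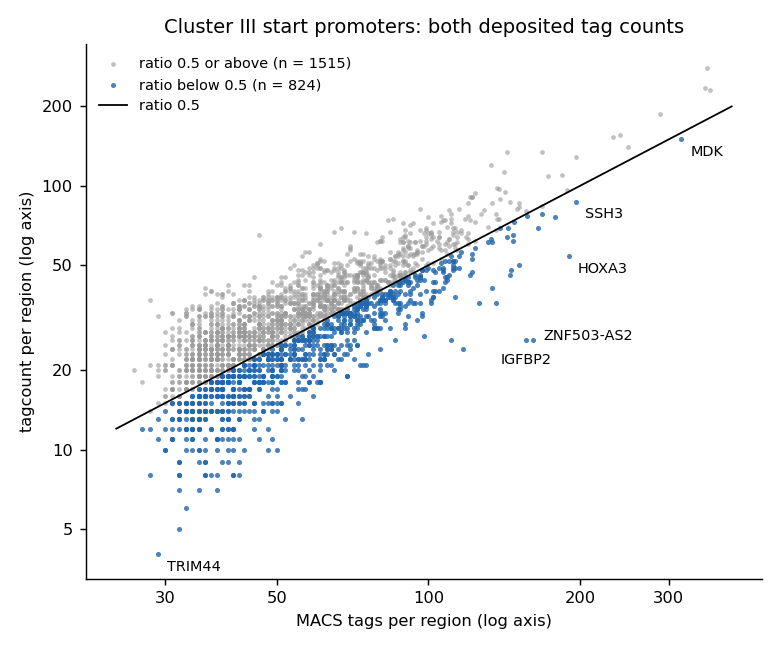
MACS tags (x axis) against tagcount (y axis), both in tags per region on log axes, for 2339 cluster III start promoters. Each point is a region, blue for the 824 with a ratio below 0.5 and grey for the 1515 others, and the line marks a ratio of 0.5. ZNF503-AS2 and IGFBP2 lie far below the line at 161 and 156 MACS tags.

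The region with most tags lay at MDK, which encodes the heparin-binding growth factor midkine (hg19 chromosome 11, 46401066 to 46403754). It had 318 MACS tags and a tagcount of 150, a ratio of 0.472 (95% counting interval 0.386 to 0.575). SSH3, a phosphatase gene of actin turnover, had 196 and 87 (chromosome 11, 67070209 to 67071800). Both regions lay close to the limit. PCIF1, whose product methylates adenosine beside the mRNA cap, had 178 MACS tags and a tagcount of 76. PCBP2, an RNA-binding protein gene, had 168 and 78, and YTHDF2, which encodes a reader of methylated adenosine in mRNA, had 157 and 77. COQ7, a gene of ubiquinone synthesis, had 165 and 69.

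A few strong members stood well below the limit. IGFBP2, which encodes an insulin-like growth factor binding protein, had 156 MACS tags and a tagcount of 26 (chromosome 2, 217497022 to 217497756), a ratio of 0.167 (0.106 to 0.254). ZNF503-AS2, a non-coding gene antisense to a zinc finger gene, had 161 and 26 (chromosome 10, 77161984 to 77162771), a ratio of 0.161 (0.102 to 0.245). ChIP-seq does not tell strands apart, so this region cannot be assigned to the antisense gene rather than its partner. At HOXA3, a homeobox gene, the stronger region had 190 and 54 (0.284, 0.206 to 0.386). The upper bounds of all 3 regions were below the pooled ratio of 0.554, which includes these regions. The ratio itself chose them as members, so this is a description and lends no support.

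Most of the other lowest ratios rested on few tags. TRIM44 had the lowest, with 29 MACS tags and a tagcount of 4 (0.138, 0.035 to 0.393). FNBP1L, a gene of actin assembly at membranes, had 32 and 5, ZHX1 had 33 and 6, and ARHGAP39 had 38 and 7. These intervals were wide. CCNB1IP1 had 42 and 8, CAMLG, a gene of membrane protein insertion, had 41 and 8, and so had the non-coding RP11-768F21.1. SCAP, which encodes the sterol-sensing escort of SREBP factors, had 50 and 10.

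Of the 812 member genes, 12 had 2 member regions each. The rule put both regions of a pair below the limit, which restricts how far their ratios can differ. Genes such as HES1, whose other start promoter was above the limit, are not among these pairs. The regions of a pair were close in ratio at DIDO1 (47 MACS tags with a tagcount of 14, and 58 with 18). The same held at the zinc finger gene ZNF703 (40 with 12, and 56 with 17). They were further apart at HOTAIRM1 (ratios of 0.449 and 0.294). RBM15, an RNA-binding gene, had 75 with 36 and 85 with 37. PPP1R8, which encodes an inhibitor of protein phosphatase 1, had 96 with 46 and 44 with 20. Regions of 1 gene come from the same libraries and are not replicates. The remaining pairs named by the rule, at REPIN1, the lamin B receptor gene LBR, CDC42EP2 and the mitochondrial ribosomal gene MRPS2, had 37 to 69 MACS tags and ratios from 0.367 to 0.492.

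HOX genes are classical retinoic acid targets, and 3 of the 5 HOX genes with a cluster III start promoter had a member region. These were HOXA3, HOXA4 and HOXD8. HOXA4 had 75 MACS tags and a tagcount of 32, and HOXD8 had 68 and 31. HOXC13 (40 and 25, ratio 0.625) and HOXC4 (34 and 19, 0.559) had no member. The median ratio of HOX start promoters was 0.441, against 0.548 over all cluster III start promoters. With 5 genes the interval of the share, 60% (14.7 to 94.7), covered that of all genes, 36.7% (34.7 to 38.8).

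The anterior HOXA locus, singled out after its values were seen, held 6 members within 32.7 kb (chromosome 7, 27138128 to 27170808). The regions were taken by the gene names HOTAIRM1, HOXA2, HOXA-AS2, HOXA3 and HOXA4, so any region there naming another gene was not counted. These names gave 12 cluster III regions, 5 of them enhancer class, and 11 of the 12 had a ratio below 0.5. The exception was an enhancer-class region of HOXA-AS2, with 33 MACS tags and a tagcount of 20 (0.606). HOTAIRM1, a non-coding RNA gene at the anterior end of the locus, had 2 members, with 49 and 22 tags and with 51 and 15. HOXA3 had 2 members, with 190 and 54 and with 151 and 50. A further HOXA3 region, classed by the authors as exonic, was lower still, with 113 and 18 (0.159, 0.091 to 0.263). The 3 enhancer-class regions of HOXA2 had 54 to 91 MACS tags and tagcount values of 18 to 30. Summed over the 12 regions, tagcount was 312 and MACS tags 973, a pooled ratio of 0.321. The regions share a locus and a library, so they are not independent. Over all cluster III regions 51.6% had a ratio below 0.5, and over those of enhancer class 65.2%.

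**Figure D2:**
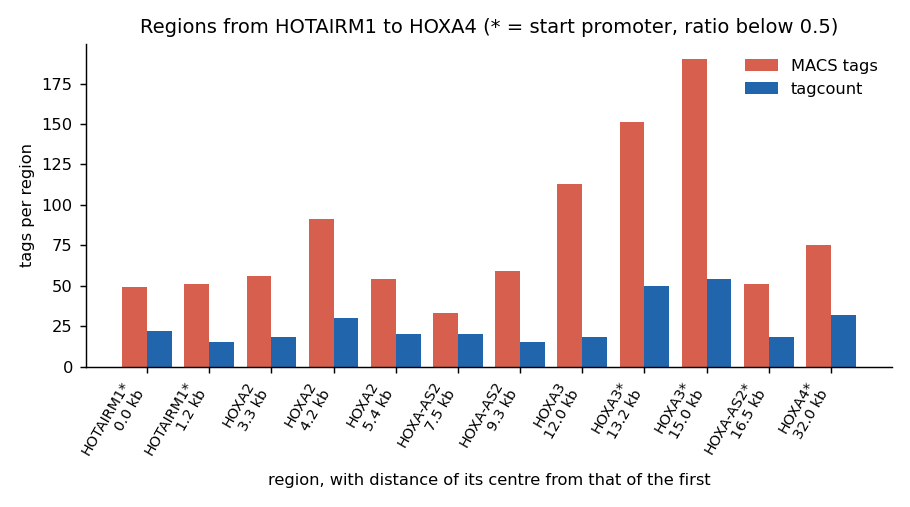
MACS tags (red bars) and tagcount (blue bars), in tags per region, for the 12 cluster III regions that name HOTAIRM1, HOXA2, HOXA-AS2, HOXA3 or HOXA4. Labels give the distance in kb of each region's centre from that of the first. Asterisks mark the 6 members, and tagcount is the lower bar in every region, most widely apart at the HOXA3 start (190 and 54).

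Immediate early genes, which respond to growth factors before new protein is made, had members at 8 of 12 genes with a cluster III start promoter (66.7%, 34.9 to 90.1). A gene counts here if any of its start promoters was a member, and by region the count was 8 of 14. The median ratio of the list was 0.425. NR4A1, an orphan nuclear receptor gene, had 87 MACS tags and a tagcount of 34. ATF3, a stress-induced transcription factor gene, had 81 and 32, and 2 further start promoters outside the members, at ratios of 0.667 and 0.515. The AP-1 gene FOSL2 had 73 and 32. SRF, the gene of serum response factor, had 69 and 19, a ratio of 0.275 (0.156 to 0.463). BTG1, CYR61, KLF6 and ZFP36L1 had 38 to 56 MACS tags and tagcount values of 11 to 21. The other genes of the list had no member. These were FOSB (89 and 46, ratio 0.517), EGR3 (68 and 38, 0.559), IER5 (51 and 29, 0.569) and JUN (48 and 34, 0.708). The interval of the share narrowly covered that of all genes (36.7%). RefSeq promoters were found for 7 of the 8, and 1 of these, SRF, held CArG boxes (2, shown above). In 5 of the 7 the start of the transcript named by the authors lay outside the RefSeq window.

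Genes of growth factor signalling and its restraint lay on both sides of the limit. Of 6 genes of the FGF and MAPK feedback list with a cluster III start promoter, 4 had a member (66.7%, 22.3 to 95.7, against 36.7% of all genes; median ratio 0.444). DUSP4 and DUSP5, phosphatase genes of the MAP kinases, had 72 and 32 and 67 and 22 tags. The ligand gene FGF3 had 70 and 30, and SPRED1, an inhibitor gene of RAS signalling, had 32 and 14. A further SPRED1 region was no member (34 and 27, ratio 0.794), nor were the feedback genes SPRED2 (45 and 38, 0.844) and DUSP6 (35 and 34, 0.971). Of the WNT list 2 of 3 genes had a member (66.7%, 9.43 to 99.2, against 36.7% of all genes). AXIN2, a feedback inhibitor gene, had 35 and 9 (0.257, 0.109 to 0.546). TCF7L1, the gene of a repressor of WNT targets, had 32 and 13 (0.406, 0.196 to 0.796). FZD1 had no member (35 and 20, ratio 0.571).

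For the other developmental lists the member share was near or below that of all genes, or rested on 1 gene. Of 9 Notch and Hedgehog genes, 3 had a member. These were the Notch target HES1 (99 MACS tags and a tagcount of 40), the Hedgehog receptor gene PTCH1 (50 and 14) and the Hedgehog effector gene GLI2 (41 and 14). HES1 and PTCH1 each had another start promoter outside the members. At HES1 it had 42 and 31 (0.738) and lay nearer to the start. At PTCH1 it had 62 and 31 (0.5). The PTCH1 regions began at 98271330 and 98278799 on chromosome 9, too far apart for their distances to refer to the same start. Of 4 retinoid genes 1 had a member. Of 3 pluripotency genes 1 was a member, SALL1 (55 and 20), of 2 neural genes it was NES, the nestin gene (96 and 45), and of 3 TGF-beta and BMP genes it was the SMAD corepressor gene SKIL (38 and 11). Of 7 axon guidance genes 2 were members, PLXNA2 (63 and 23) and EFNA3 (59 and 24, beside another start promoter at 0.581). No mesoderm or endoderm gene of the list had a cluster III start promoter.

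The lists of chromatin and cell cycle genes had 2 to 5 genes each with a cluster III start promoter. PRMT6 itself, the writer of the mark, had a member at its start (chromosome 1, 107599041 to 107599500) with 51 MACS tags and a tagcount of 24, and it was 1 of 3 arginine methyltransferase genes. ASH1L, a histone methyltransferase gene, had 147 and 62 and was 1 of 5 genes of the H3K4 methylation list. Being on that list does not show which lysine the product of a gene acts on. CDK4, the cyclin D partner, had 86 and 26 (0.302, 0.187 to 0.474) and was 1 of 3 cell cycle genes. Neither of the 2 Polycomb genes was a member. Over the 14 curated lists together, 26 of 62 genes had a member (41.9%, 29.5 to 55.2), near the 36.7% of all genes, and the median ratio of their start promoters was 0.54.

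Gene families for general cell functions had median ratios from 0.544 to 0.689. They were matched by gene name, so their counts include pseudogene, antisense and opposite-strand names such as HIST2H3DP1, H1FX-AS1 and SLC7A6OS. The interval of the member share covered the 36.7% of all genes in each of these families. Cytoplasmic ribosomal protein genes had members at 9 of 32 genes (28.1%, 13.7 to 46.7; median ratio 0.596), led by RPL35 (116 MACS tags and a tagcount of 56). Mitochondrial ribosomal genes had 5 of 19, led by MRPS34 (88 and 42), and histone genes 3 of 13, led by the linker histone gene HIST1H1E (107 and 47). Proteasome genes had 3 of 10, where PSMD12 had the lowest ratio of those named (52 and 13). RNA helicase and hnRNP genes had 6 of 23, led by DHX9 and HNRNPA2B1 (93 and 41). HNRNPA2B1 also had start promoters outside the members, with 138 and 75 (0.543) and with 35 and 34 (0.971). Solute carriers had 10 of 30, led by the zinc transporter gene SLC39A7 (113 and 52). NADH dehydrogenase subunits had 4 of 9, led by NDUFB7 (78 and 38).

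Numbered zinc finger genes, the ZNF family of DNA-binding repressors, had members at 24 of 58 genes (41.4%, 28.6 to 55.1; median ratio 0.534), near the 36.7% of all genes. On chromosome 19 lay the strongest 4, at ZNF606 (109 and 45), ZNF461 (96 and 45), ZNF547 (92 and 40) and ZNF583 (85 and 42). Of the KLF and SP family 2 of 4 genes had a member, KLF6 (51 and 21) and SP3 (44 and 14, beside 2 further start promoters at ratios of 0.5 and 0.596). SOX genes had 2 of 3, SOX12 (52 and 23, beside another at 0.5) and SOX7 (30 and 10), and FOX genes 0 of 2. The intervals of these shares also covered 36.7%. Zinc finger, histone and ribosomal genes have near-identical copies, and no source used here says how tags with several matches were treated.

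In shape and position the members were much like the higher-ratio start promoters. Their median width was 524 bp (512 to 536), against 519 bp (509 to 530), and 535 bp (524 to 549) in cluster II. Within 250 bp of the start lay 83.6% of members (80.9 to 86.1) and 84.8% of the higher-ratio regions (82.8 to 86.5), against 90.1% in cluster II (88.4 to 91.6). The region lay past the start, on the transcribed side, in 44.8% of members (41.3 to 48.3), in 42.9% of higher-ratio regions (40.4 to 45.4) and in 29.3% of cluster II regions (26.9 to 31.7). The interval of the members did not overlap that of cluster II and overlapped that of the higher-ratio regions. Distances are the authors' column, from −1624 to 1999 bp among members, and 8 members lay beyond the start window by it. No source used here says where in a region they were measured. On 1216 pairs of neighbouring regions of a transcript, the column fitted the strand within 400 bp in 97.6% and within 50 bp in 32.8%. The median distance of members, 69 bp, is small beside that, so the share past the start is imprecise for single regions.

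**Figure D3:**
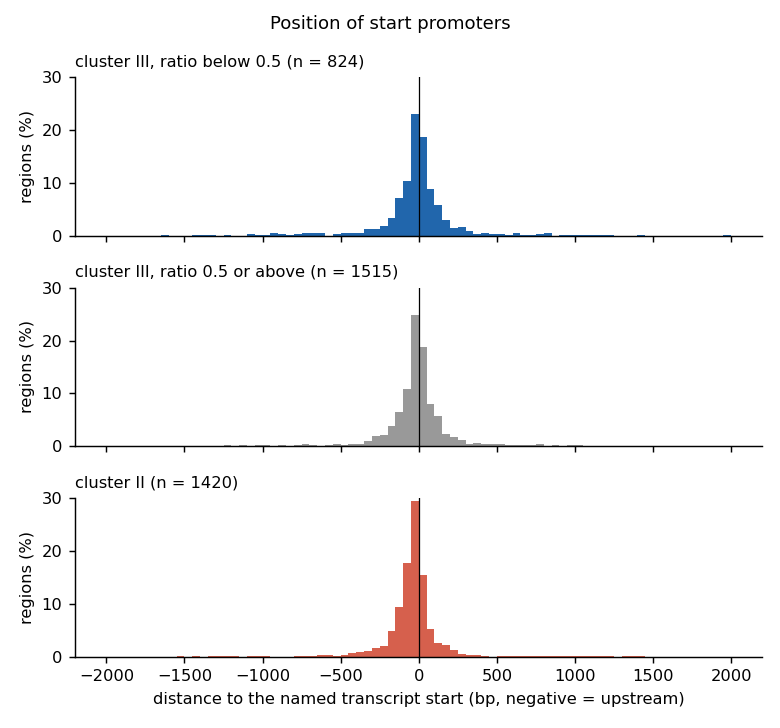
Distance to the named transcript start (x axis, bp, negative upstream) as a percentage of regions (y axis, bins of 50 bp), for members (top), higher-ratio cluster III start promoters (middle) and cluster II start promoters (bottom). The cluster II histogram lies more to the left of the start, with 29.3% past it against 44.8% of members.

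The members named mostly protein-coding genes. These made up 743 of 824 (90.2%, 87.9 to 92.1), against 86.6% (84.8 to 88.3) of the higher-ratio regions and 89.9% of cluster II. Long non-coding genes made up 62 (7.52%). A start of another protein-coding gene on the opposite strand within 1 kb, as in a divergent promoter, was found for 19.5% of members, 20% of higher-ratio regions and 26.1% (23.7 to 28.6) of cluster II.

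By a shared gene name, the main measure, a cluster II region was found for 3.94% of member genes (2.71 to 5.52) and 4.56% of higher-ratio genes (3.54 to 5.76), and the intervals overlapped. By distance, the other measure, a cluster II region lay within 10 kb of 42 of 824 members (5.10%, 3.70 to 6.83) and of 140 of 1515 higher-ratio regions (9.24%, 7.83 to 10.8), and these intervals did not overlap. The difference therefore depended on the measure. By name, a gene with regions on both sides of the limit counts in both sets, which together held 2211 genes. Enhancer-class regions were named for 8.25% of member genes (6.45 to 10.4), 9.88% of higher-ratio genes (8.39 to 11.5) and 5.92% of cluster II genes.

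Low ratios were less frequent on chromosome 1, which was singled out after its values were seen. Of its 477 cluster III start promoters 124 were members (26.0%, 22.1 to 30.2), against 700 of 1862 elsewhere (37.6%, 35.4 to 39.8). The median ratio was 0.606 on chromosome 1 and 0.541 elsewhere. Among chromosomes with more than 100 such promoters, the share was 42.9% on chromosome 3, the highest of these. Chromosome 18 had 9 of 16 (56.3%) and X 25.6% of 39, with wide intervals. On the short arm of chromosome 12, which the rule left out, it was 11 of 178 (6.18%). The number of copies of each chromosome in these cells was not tested.

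**Figure D4:**
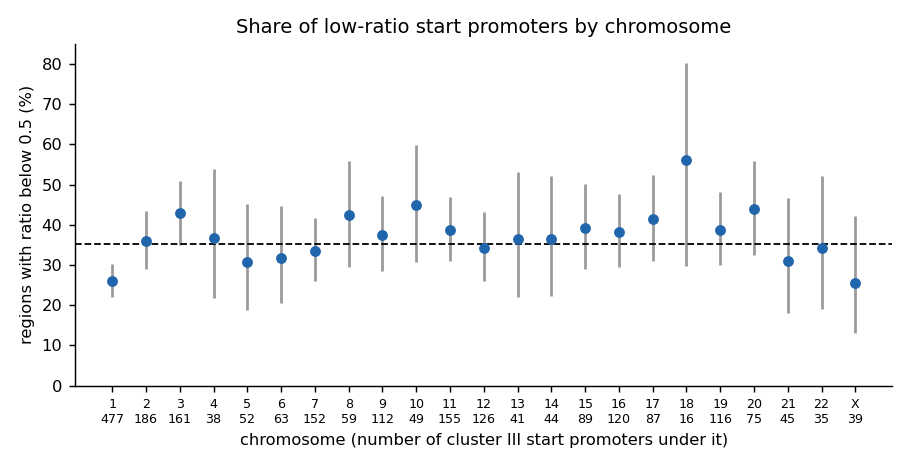
Percentage of cluster III start promoters with a ratio below 0.5 (y axis) by chromosome (x axis, number of promoters under each), with exact 95% binomial intervals as bars and the overall 35.2% as a dashed line. Chromosome 1, at 26.0% of 477, is below the line with its whole interval.

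Promoters of members were richer in G and C. The sequence comparison used protein-coding genes, because 608 of 743 such member regions (81.8%) had an entry in the RefSeq table against 642 of all 824 (77.9%). The median GC content was 67.3% in 600 member promoters (66.7 to 68.3), 64.3% in 1069 higher-ratio promoters (63.7 to 65.0), 61.7% in 1049 cluster II promoters (61.0 to 62.3) and 58.7% in all 35116 promoters of the table. CpG dinucleotides stood at 0.883 of the number expected from base composition in members (0.866 to 0.904) and at 0.858 in higher-ratio promoters (0.847 to 0.870). These CpG intervals overlapped. A promoter with regions on both sides of the limit counts in both cluster III sets, here and for the motifs below. Together these sets held 1641 promoters.

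Low ratios made up a larger share at higher GC content. In quartiles of cluster III start promoters ordered by GC (n = 410 or 411 each, median GC 56.0%, 62.7%, 68.0% and 74.3%), 24.8%, 32.4%, 39.8% and 46.6% had a ratio below 0.5. Intervals of the lowest quartile (20.7 to 29.3) and the highest (41.7 to 51.5) did not overlap. Without chromosome 1 the shares were 25.5%, 35.2%, 43.6% and 49.7%, and on chromosome 1 alone they were 21.0%, 21.3%, 25% and 33.8%. Median GC was 65.3% on chromosome 1 and 65.7% elsewhere. Across the 1641 promoters Pearson's r of GC with the ratio was −0.17 and Spearman's rank coefficient −0.19, given as a description because all points share the same pair of libraries. The part of base composition in the amplification or sequencing of these libraries was not tested.

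**Figure D5:**
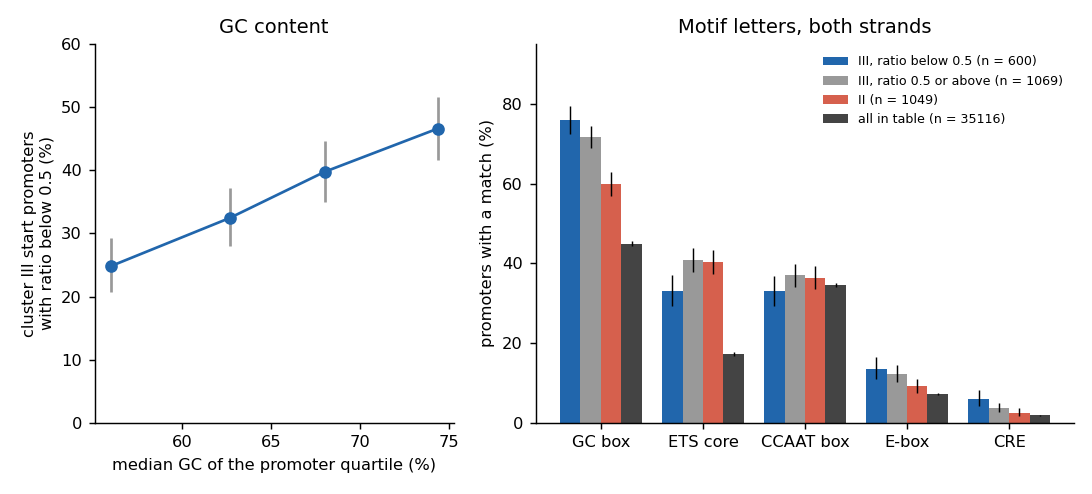
Left, percentage of cluster III start promoters with a ratio below 0.5 (y axis) against the median GC (x axis, %) of 4 GC quartiles, rising from 24.8% to 46.6%. Right, percentage of RefSeq promoters holding each motif on either strand in members (blue), higher-ratio promoters (grey), cluster II (red) and the whole table (black). Bars on points and columns are exact 95% binomial intervals.

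Some motif letters differed in frequency. The ETS core CCGGAA, read by ETS factors, was in 33.2% of member promoters (29.4 to 37.1) and in 40.8% of higher-ratio promoters (37.8 to 43.8), and these intervals did not overlap. The share was 40.3% in cluster II and 17.2% in the table. The GC box, marked in the sequences above, was in 76.0% of member promoters (72.4 to 79.4), 71.7% of higher-ratio promoters (68.9 to 74.3), 59.9% of cluster II and 45.0% of the table. The first pair of intervals overlapped, and that of cluster II (56.8 to 62.8) lay below both. The palindrome TGACGTCA, the cyclic AMP response element, was in 6% (4.24 to 8.21), 3.65% (2.61 to 4.95), 2.57% and 1.85%. Its intervals in members and higher-ratio promoters overlapped. GC content moves with these letters, and its part in the differences was not tested.

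For each of the other motifs, the intervals of members and higher-ratio promoters overlapped. CCAAT, the NF-Y box, was in 33.0% and 37.0%, the E-box CACGTG in 13.5% and 12.3%, and the YY1 core AAGATGGC in 6.83% and 9.26%. The TATA box TATAAA was in 4% and 5.14%, the octamer ATGCAAAT of POU factors in 1.17% and 0.84%, and the NRF1 site in 2.50% and 2.15%. Table shares were 34.6%, 7.26%, 2.89%, 11.5%, 1.77% and 1.24% in the same order. The CArG box, added after the data were seen, was in 2.33% of member promoters and 1.29% of the table. For retinoic acid receptors, the single receptor site AGGTCA was in 10.8% of member promoters, 10.1% of higher-ratio promoters and 13.8% of the table. The spaced repeats DR5 and DR2 were found in 0 of 600 member promoters (upper 95% bound 0.613%), and in 31 and 14 of the 35116 in the table.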

How the data were processed

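H3R2me2a ChIP-seq regions came from 2 libraries of control NT2/D1 cells, 1 per condition. The authors deposited 5 region lists on hg19 with whole-number tag counts per region (MACS tags and tagcount), unscaled, and distances to starts, per the file headers. The submitters' processing notes name bcl2fastq, Bowtie2, MACS 1.4 and deepTools. No source used here gives the peak calling settings, the criteria of the clusters or the depth.

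Lists were joined on exact coordinates. Shares carry exact Clopper-Pearson 95% intervals and medians order-statistic intervals. Both treat regions, genes or promoters as independent draws and leave out the counting error of the tags in each region. Ratios carry conditional binomial intervals, which cover the counting error of tags only. None of these intervals covers variation between libraries, so whether they overlap is a description. No test was made. The procedures were tested on simulated data. The remaining columns and 20 samples were not analysed here.

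Of 824 member names 820 matched RefSeq or GENCODE 44. Promoters (RefSeq, GRCh38.p14) were matched by symbol, taking the entry nearest to the GENCODE start of the named transcript, which lay inside the window for 504 of 608 member regions (82.9%). Motifs were searched on both strands as letters, and DR5 and DR2 can contain the single receptor site. The distance sign was checked on 1216 pairs of neighbouring regions of a transcript, of which 97.6% fitted its strand within 400 bp and 32.8% within 50 bp.

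Members and the 14 gene lists, 12 families and 12 motifs were chosen with earlier results of these data known. Genes named are the 10 members with most MACS tags, the 10 with the lowest ratio, 3 on either side of the limit, up to 10 with several regions and up to 4 per list with most tags. A few genes that this rule takes are not reported here. Alternatives were another ratio limit, stronger regions, a 500 bp window, 1 region per gene, the short arm of chromosome 12 kept, 1 added to both counts, overlap matching, neighbours by distance and, added after seeing the data, leaving out chromosome 1 and promoters whose window missed the named start. Python 3.11.15, pandas 2.3.3, numpy 2.4.6, scipy 1.17.1 and matplotlib 3.10.9 were used.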

Additional observations from a re-analysis of the deposited data

How the results depend on the processing

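Across 15 results and 11 alternatives, 90 values stayed within the counting interval of the value reported and 20 moved out of it. The limit of 0.25 left 27 members and moved most. With it the low-ratio share went from 35.2% to 1.15%, the pooled ratio from 0.410 to 0.201, the median MACS tags from 51 to 41 and the median width from 524 to 432 bp. The share within 250 bp of the start became 70.4%, the share past the start 33.3%, member genes with a cluster II region 7.69%, members with one within 10 kb 7.41%, member genes with an enhancer-class region 19.2%, promoters with a GC box 72.2%, and curated-list genes with a member 0% (immediate early genes too). Among regions with MACS tags at or above the median, the pooled ratio was 0.418, the median MACS tags 71, the width 640 bp and the share past the start 40.5%. The low-ratio share was 33.2% with the short arm of chromosome 12 kept, 33.0% with 1 added to both counts and 37.6% without chromosome 1. Enhancer-class regions counted within 10 kb gave 5.46% in place of 8.25%. Without chromosome 1, a cluster II region lay within 10 kb of 5.29% of members (3.75 to 7.21) and 9.12% of higher-ratio regions (7.53 to 10.9). No paired analysis was possible because each condition had 1 library. Depth is unknown, so the ratio was never scaled.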
